A study of Rattus norvegicus with 12 samples.

Results

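The interaction of urolithin B and islet amyloid polypeptide (IAPP) was read in INS-1 832/3 cells, an insulin-secreting rat line that came from an insulinoma and stands in for pancreatic beta cells. It asks whether the change of a gene under IAPP differed between cells that had first received urolithin B and cells that had not. All 12 libraries of the series entered it, in 4 groups of 3: untreated control, urolithin B alone at 50 uM for 12 h, IAPP alone at 2 uM for 24 h, and urolithin B at 50 uM for 12 h followed by IAPP at 2 uM for 24 h. The interaction is the IAPP change after urolithin B minus the IAPP change without it, on the log2 scale. A negative value means that the cells given both lay lower than the separate changes would place them, and a positive value that they lay higher. Of 31368 genes in the count table, 16814 had enough counts to be tested. All groups were wild-type cells of this 1 line in serum-containing RPMI medium. The labels name no vehicle for urolithin B, no species for the IAPP peptide, and no further culture time for the cells given urolithin B alone, so the groups may also differ in these respects. Whether the replicates were separate cultures is not stated in the labels, which call them biological replicates, and each p-value then reflects only how far these libraries scatter, which may be technical.

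IAPP, also called amylin, is secreted by beta cells together with insulin, and its human form can assemble into amyloid that is toxic to them. Urolithin B is a metabolite that gut bacteria make from the ellagitannins of fruits and nuts. The tumour suppressor p53 is a transcription factor that accumulates in stressed or damaged cells. It turns on genes that stop the cell cycle, genes that promote cell death and repair, and Mdm2, a ubiquitin ligase that marks p53 for degradation and so closes a feedback loop. Mature beta cells are defined by transcription factors such as Mafa and Pdx1 and by the machinery that takes up glucose and releases insulin.

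The libraries held 4828003 to 6681455 counts, and replicate 1 stood apart from the others in every group. Its 4 libraries detected 22139 to 22615 genes and gave 6.52% to 8.83% of counts to mitochondrial rRNA, against 19529 to 20201 genes and 13.1% to 20.9% in the other 8 libraries. The interaction of that rRNA share was -0.43, 0.18 and -0.31 (log2) in replicates 1, 2 and 3, so it had no common direction. The beta-cell markers were present in all libraries: Ins1 at 7691 to 21327 CPM (counts scaled to a common library size), Ins2 at 1856 to 5848 CPM, Pdx1 at 58.4 to 112 CPM and Nkx6-1 at 24.8 to 50.5 CPM. Iapp itself was listed at 0 counts in all 12 libraries. Of 8 alpha, delta and PP cell markers, Irx1, Sst and Ppy were at 0 throughout, and the summed level was 19.8 to 98.9 CPM in control, 39.1 to 211 CPM with urolithin B, 29.1 to 133 CPM with IAPP and 44.0 to 202 CPM with both. For 15 fibroblast, endothelial and leukocyte markers, with Col1a2 at 0, the sums were 37.4 to 99.5 CPM in control, 26 to 77.1 CPM with urolithin B, 28.4 to 148 CPM with IAPP and 26.9 to 114 CPM with both. For 13 exocrine and ductal markers, with Cpa1, Prss1 and Pnlip at 0, they were 354 to 365 CPM in control, 342 to 438 CPM with urolithin B, 269 to 330 CPM with IAPP and 360 to 393 CPM with both. That sum was lowest in the IAPP libraries and was mostly Krt8, with means of 331 CPM in control and 268 CPM with IAPP, whereas Krt7 (6.26 and 13.5 CPM) and Ctrb1 (2.58 and 6.55 CPM) had higher means with IAPP. The part of these markers in the results was not tested. Of its 6 tested genes none was called with the block, and their median interaction was -0.54. In bulk RNA, fewer cells of a type and less RNA per cell cannot be told apart.

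The 5 genes called both with and without a replicate block were high after IAPP alone and lay near the control level when urolithin B came first. The edgeR quasi-likelihood test without a replicate block called 5 genes at an adjusted p under 0.05, which was 0.0297% of the tested genes. They were Cdkn1a, Mdm2, Zmat3, Il15 and Aen, and all 5 interactions were negative. Libraries with the same replicate number deviated from their group means together, so a second fit, blocked on that number, is given beside this one. That pairing rested on replicate 1. With it left out, the deviations of same-number pairs correlated with r from -0.06 to 0.02. With replicates 2 and 3 alone the deviations of a group mirror each other, so both numbers give the same r values. With the block 274 genes were called, or 1.63%, of which 171 were negative (1.02%) and 103 positive (0.613%). No gene was called positive in this fit without the block, where 394 positive and 514 negative genes had an unadjusted p under 0.05. Together they were 908 of the 16814 tested genes, near the share that a cut-off of 0.05 passes with no interaction. DESeq2 without the block called 36 genes positive and 77 negative, and with the block 127 positive and 160 negative. The count depended on single libraries. Leaving out any 1 of the 12 gave 1 or 2 calls without the block, which were Cdkn1a and, without urolithin B replicate 3 or IAPP replicate 2, also Mdm2. With the block, the 274 calls became 143 without control replicate 2, 176 without control replicate 3, 163 and 167 without IAPP replicates 2 and 3, and 167 and 142 without combined replicates 2 and 3. Leaving out replicate 1 of control, IAPP or the combined group gave 191, 240 and 245 calls. The count rose to 303, 395 and 317 without urolithin B replicates 1, 2 and 3. None of the 274 genes had the opposite sign under any of the alternatives fitted. All 274 had the same sign in their 3 replicate values, and the alternatives reuse these libraries. A turned sign was therefore hardly possible, and this is a description. Below, a gene is said to be called with the block where it passed in that fit. Cdkn1a, Mdm2, Zmat3, Il15 and Aen passed in both fits, and the other called genes in the blocked one. Where the libraries of a called gene are said to lie apart or not to overlap, this is a description. The gene was called on these same libraries, so the separation adds no support to the call.

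The sequence upstream of 4 of the 5 genes is shown because p53 binds a DNA element made of 2 half-sites. The 250 bases before the annotated gene start were taken from RefSeq on the GRCr8 assembly and written 5′ to 3′ on the gene's strand, which for Cdkn1a is chr20:7150682-7150931 (+), for Mdm2 chr7:55200792-55201041 (-), for Il15 chr19:42544456-42544705 (+) and for Aen chr1:142224283-142224532 (+). Capitals mark each match to the p53 half-site, whose pattern is the same on both strands.
Cdkn1a: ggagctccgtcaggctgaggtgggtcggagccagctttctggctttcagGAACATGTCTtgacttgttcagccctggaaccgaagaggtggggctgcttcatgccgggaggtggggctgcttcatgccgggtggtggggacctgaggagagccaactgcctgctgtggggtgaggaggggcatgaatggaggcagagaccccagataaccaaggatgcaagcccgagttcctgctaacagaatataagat
Mdm2: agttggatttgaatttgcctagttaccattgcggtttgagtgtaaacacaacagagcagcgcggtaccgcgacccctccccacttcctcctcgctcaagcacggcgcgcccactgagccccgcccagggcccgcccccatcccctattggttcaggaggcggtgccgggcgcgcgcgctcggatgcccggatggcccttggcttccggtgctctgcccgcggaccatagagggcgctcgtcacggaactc
Il15: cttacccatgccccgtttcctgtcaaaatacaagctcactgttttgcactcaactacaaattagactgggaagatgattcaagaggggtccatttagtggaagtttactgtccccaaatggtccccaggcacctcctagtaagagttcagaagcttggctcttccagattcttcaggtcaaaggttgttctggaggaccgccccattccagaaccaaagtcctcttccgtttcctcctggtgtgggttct
Aen: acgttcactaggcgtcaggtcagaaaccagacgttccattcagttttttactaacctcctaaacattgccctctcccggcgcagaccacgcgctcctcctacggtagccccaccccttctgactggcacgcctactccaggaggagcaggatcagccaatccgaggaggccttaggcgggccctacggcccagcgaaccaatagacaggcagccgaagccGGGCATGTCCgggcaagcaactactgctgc
Cdkn1a held 1 match that began 201 bases before the gene start, and Aen held 1 that began 30 bases before it. Mdm2 and Il15 held no match in this window, which says only that these letters are not there. Over the negative genes called with the block that had a promoter entry, 12 of 122 held a half-site (9.84%), against 5 of 68 positive ones (7.35%) and 6% of the 11326 tested genes with an entry. The core of the antioxidant response element (TGACNNNGC, either strand), bound by NRF2, was in 11 of the negative genes (9.02%), 9 of the positive ones (13.2%) and 12.0% of tested genes. The core of the xenobiotic response element (GCGTG, either strand), bound by the aryl hydrocarbon receptor, was in 41.8%, 50.0% and 41.4%, respectively. Over all 33469 promoters the shares were 6.64%, 10.1% and 25.9% for the 3 motifs. These matches are descriptions and not binding sites.

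Among the genes that halt the cell cycle, Cdkn1a had the clearest interaction. It encodes p21, an inhibitor of cyclin-dependent kinases and a classical p53 target. Its level was 17.8, 20.3 and 15.4 CPM in control replicates 1 to 3, 19.98, 23.02 and 17.5 CPM with urolithin B, 174, 138 and 151 CPM with IAPP, and 25.3, 18.5 and 22.7 CPM with both. The 3 IAPP libraries lay far above the other 9, whose groups overlapped. The interaction was -2.98 ± 0.23 (log2 ± SE, adjusted p = 0.000482), and -2.94, -3.05 and -2.90 in replicates 1 to 3. From the separate changes a combined level of 174 CPM would follow, and 22.3 CPM was measured.

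Of 16 tested genes of p53-driven arrest and stress braking, 10 were called negative with the block (62.5% against 1.63% of all tested genes) and none positive. In all 3 replicates 10 of the 16 were negative, against 18.6% of all tested genes. The median interaction was -0.99, and -1.22, -1.02 and -1.11 in replicates 1 to 3, where all tested genes had a median of -0.0049. Zmat3, an RNA-binding zinc finger protein, was at 53.9, 60.2 and 63.1 CPM in control, 59.2, 66.9 and 61.3 CPM with urolithin B, 136, 146 and 143 CPM with IAPP, and 57.5, 63.0 and 68.2 CPM with both. Its interaction of -1.25 ± 0.15 was called without the block (adjusted p = 0.0258), and again the IAPP libraries did not overlap the rest. Ccng1, which encodes cyclin G1, was the most abundant gene of this pattern. It stood at 217, 265 and 238 CPM in control, 226, 314 and 267 CPM with urolithin B, 846, 1300 and 1318 CPM with IAPP, and 204, 309 and 375 CPM with both. Without the block its interaction of -2.13 ± 0.33 just missed the threshold (adjusted p = 0.0604), and with it the adjusted p was 1.06e-08. Tp53inp1, a p53-inducible nuclear protein, showed the same pattern at 23.5, 11.8 and 14.3 CPM in control, 26, 16.3 and 13.3 CPM with urolithin B, 143, 112 and 118 CPM with IAPP, and 27.2, 15.9 and 18.5 CPM with both. Its interaction was -2.75 ± 0.42, with an adjusted p of 0.0604 without the block and 2.72e-09 with it. Btg2, an antiproliferative gene, was at 158 to 170 CPM in the IAPP libraries and at 45.1 to 68.8 CPM in the other 9. Its adjusted p was 0.0604 without the block and 1.51e-05 with it.

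The remaining arrest genes called with the block were Plk2, a polo-like kinase, Phlda3, a repressor of Akt signalling, Ddit4, an inhibitor of the growth kinase mTORC1, Sesn2, a sestrin with a related role, and Btg1. Plk2 was low, at 1.05 to 3.18 CPM outside the IAPP group and 16.7, 13.8 and 13.7 CPM within it. The blocked fit gave -2.65 ± 0.47 (adjusted p = 0.00191). Phlda3 had a mean of 25.3 ± 7.31 CPM (SD, n = 3) with IAPP and 5.48 ± 1.49 CPM with both, near the 3.63 ± 1.57 CPM of control. Btg1 and Sesn2 had smaller interactions of -0.67 ± 0.16 and -0.73 ± 0.15 with the block.

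**Figure D1:**
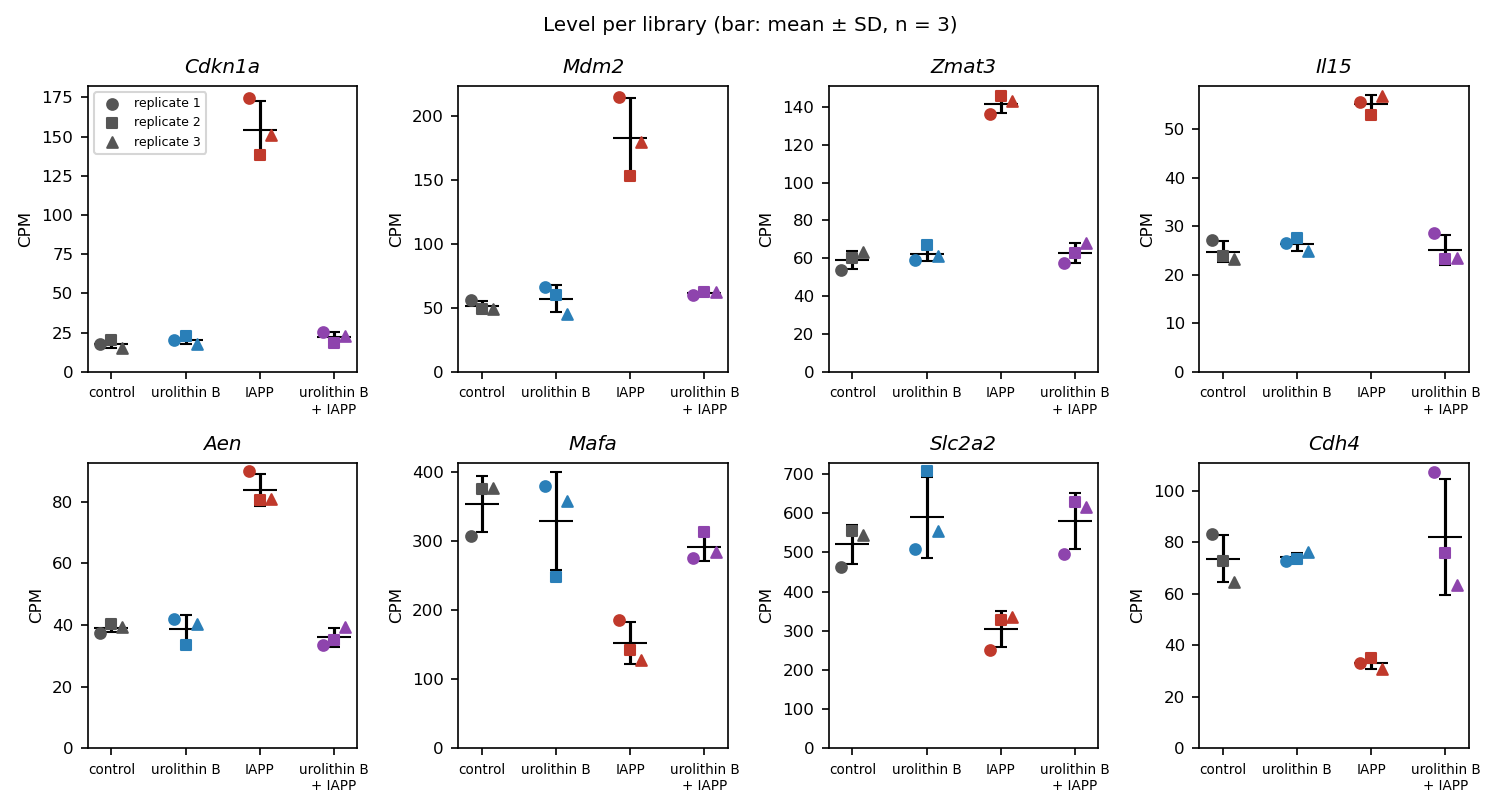
Level in CPM (vertical axes, linear from 0) of 8 genes in the 4 groups, with 1 point per library, the shape showing the replicate number, and bars for the mean ± SD. For Cdkn1a, Mdm2, Zmat3, Il15 and Aen the 3 IAPP libraries lie above all others, and for Mafa, Slc2a2 and Cdh4 they lie below all others.

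Within the p53 feedback loop, Mdm2 followed the arrest genes. Mdm2 was at 55.9, 48.8 and 49.0 CPM in control, 66.5, 59.7 and 45.3 CPM with urolithin B, 215, 153 and 179 CPM with IAPP, and 60.2, 62.3 and 62.2 CPM with both. Its IAPP libraries lay above all others and its combined libraries within the urolithin B range. The interaction was -1.72 ± 0.22 (adjusted p = 0.0348), with -2.08, -1.58 and -1.41 in the replicates. The long noncoding RNA Pvt1 was called with the block, at 226, 135 and 168 CPM with IAPP, 76.9, 43.0 and 40.4 CPM with both and 53.8 to 93.6 CPM in the other 6 libraries. With the block the interaction was -1.67 ± 0.17 (adjusted p = 6.45e-07). In all, 2 of 7 tested genes of this list were called with the block (28.6%, against 1.63%), Mdm2 and Pvt1, and the list's median of -0.01 lay at that of all genes. Mdm4, the close relative of Mdm2, had an interaction of -0.36 ± 0.30 without the block and -0.38 ± 0.17 with it. It was called in neither fit.

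Of 15 tested genes that carry out p53-dependent death, 5 were called negative with the block (33.3%, against 1.02% of all tested genes) and none positive. The list had 11 negative values and a median of -0.40. Aen, an apoptosis-enhancing nuclease, was called in both fits. It was at 37.5, 40.5 and 39.3 CPM in control, 41.9, 33.4 and 40.5 CPM with urolithin B, 89.9, 80.5 and 81.0 CPM with IAPP, and 33.4, 35.3 and 39.5 CPM with both, so that the IAPP libraries did not overlap the others. Its interaction was -1.20 ± 0.17 (adjusted p = 0.0454). Bbc3, which encodes the BH3-only protein PUMA, was at 84.6, 73.5 and 64.4 CPM with IAPP and at 30.7, 29.8 and 28.4 CPM with both. Control and urolithin B libraries held 14.5 to 24.5 CPM of Bbc3, so its combined level lay between those of IAPP and control. Its interaction with the block was -1.13 ± 0.21 (adjusted p = 0.00294). Unc5b, a netrin receptor, Fas, a death receptor, and Bax, which opens the mitochondrial outer membrane, were the others, with -2.03 ± 0.34, -1.59 ± 0.37 and -1.08 ± 0.28 with the block. Bax passed narrowly (adjusted p = 0.0492). The medians of this list over the replicates were -1.15, -0.50 and -0.21.

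Of 10 tested genes on the list of DNA repair genes linked to p53, only Gtse1 was called with the block (10%, against 1.63% of all tested genes). Gtse1 is not itself a repair enzyme, so this share is no result about repair. The polymerase genes Polk and Polh and Fancc were not called (adjusted p = 0.0962, 0.341 and 0.545 with the block). Gtse1, which binds microtubules and restrains p53, was at 64.5, 72.4 and 79.9 CPM with IAPP, 24.8, 25.4 and 30.4 CPM with both, and 21.97 to 31.6 CPM in the other 6 libraries. The value with the block was -1.30 ± 0.21 (adjusted p = 0.000596). The list's median was -0.34, with 8 of 10 values negative.

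Il15, the cytokine interleukin 15, was the gene outside these lists that was called in both fits. Its level was 27.2, 23.8 and 23.4 CPM in control, 26.5, 27.7 and 24.9 CPM with urolithin B, 55.7, 52.98 and 56.9 CPM with IAPP, and 28.6, 23.3 and 23.4 CPM with both. The combined libraries spanned the control range and the IAPP libraries stood apart. The interaction was -1.22 ± 0.17 (adjusted p = 0.0454), with -0.92, -1.39 and -1.36 in the replicates. Of 14 tested interferon and antigen-processing genes, 1 was called with the block (7.14%, against 1.63%). This was Tap1, a subunit of the peptide transporter that loads MHC class I, at 21.7, 18.5 and 18.4 CPM with IAPP and 1.89 to 7.63 CPM in the other 9 libraries. None of 12 tested NF-kB subunits and targets and none of 12 immediate early and AP-1 genes was called. Their medians were 0.04 and -0.35, and the NF-kB median was -0.05 with scaling to library size alone.

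The other negative genes named by size were Tnfrsf22, Fam212b and Tubb6, all called with the block. Tnfrsf22, in mouse a decoy receptor of the TNF receptor family, had the largest interaction of the named genes. It was at 6.33, 1.94 and 1.68 CPM in control, 9.73, 4.82 and 1.73 CPM with urolithin B, 36.9, 21.9 and 27.3 CPM with IAPP, and 6.83, 1.05 and 2.74 CPM with both. The interaction with the block was -3.80 ± 0.47 (adjusted p = 1.98e-05). Fam212b, whose current symbol is Inka2, was at 35.2, 29.5 and 27.8 CPM with IAPP and 1.71 to 5.87 CPM elsewhere. Tubb6, a beta-tubulin, was at 16.5, 16.01 and 20.2 CPM with IAPP and 1.05 to 4.10 CPM elsewhere. Of 13 tested tubulins Tubb6 was called negative and Tuba4a positive (15.4%, against 1.63%). Nqo1, a quinone reductase and NRF2 target, was the 1 called gene among 15 tested NRF2 targets and regulators (6.67%, against 1.63%). It was at 5.10, 4.26 and 5.05 CPM in control, 5.13, 5.75 and 5.01 CPM with urolithin B, 19.4, 16.2 and 16.4 CPM with IAPP, and 8.10, 7.13 and 7.35 CPM with both. The combined libraries lay above control and far below IAPP alone. The interaction with the block was -1.35 ± 0.32 (adjusted p = 0.0238). None of 4 tested aryl hydrocarbon receptor genes was called, and Cyp1a1, with 0 to 7 counts per library, was too low to test.

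**Figure D2:**
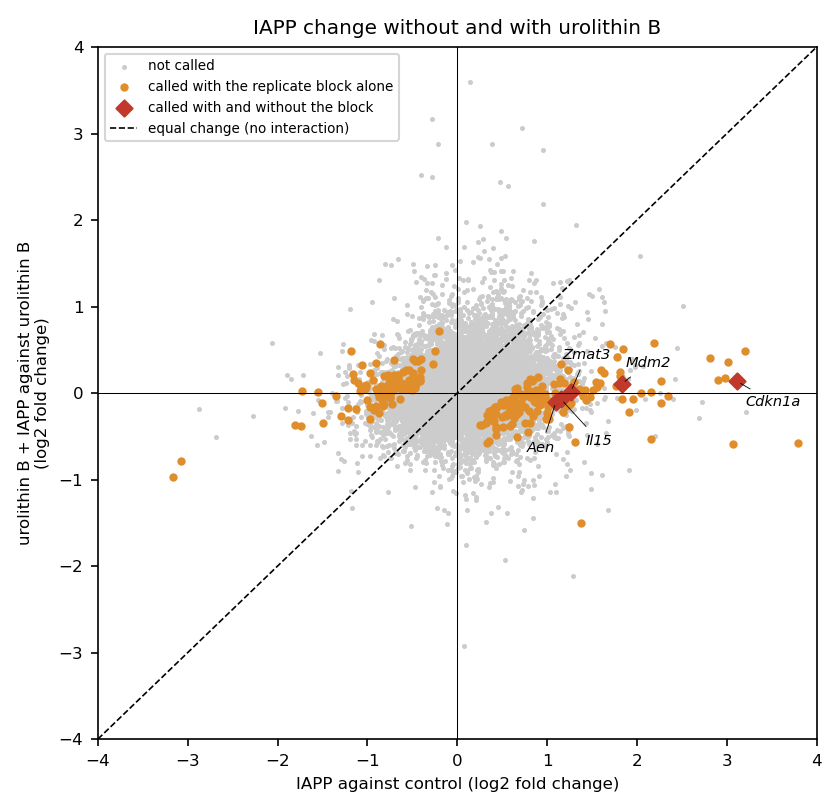
IAPP change without urolithin B (horizontal axis, log2 fold change) against IAPP change after urolithin B (vertical axis, log2 fold change), 1 point per tested gene. Most points called in the interaction spread along the horizontal axis and stay near 0 on the vertical one. Together the axes use all 12 libraries.

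In 98 of the 103 genes with a positive interaction, the IAPP group mean stood farthest from the other 3 groups, and in those named here it was the lowest. In the edgeR fit without the block that called 5 genes, none of the 103 passed. With a filter of a mean of at least 5 CPM, unblocked edgeR on all 12 libraries called LOC690918, Fabp5 and Dcx positive. With scaling to library size alone it called LOC690918 positive. Of 17 tested beta-cell transcription factors, 2 were called positive and 1 negative with the block (17.6%, against 1.63% of all tested genes). Mafa, an activator of insulin transcription, was at 307, 376 and 377 CPM in control, 380, 247 and 358 CPM with urolithin B, 186, 142 and 128 CPM with IAPP, and 275, 313 and 284 CPM with both. Its IAPP libraries lay below the other 9. The interaction with the block was 1.06 ± 0.20 (adjusted p = 0.00343, and 0.333 without the block), but the replicates gave 0.26, 1.74 and 1.22. Mnx1, a homeobox factor that keeps beta-cell identity in mouse, was at 48.8, 42.4 and 40.3 CPM with IAPP and 77.9, 101 and 93.5 CPM with both. With the block it had an interaction of 0.91 ± 0.18 (adjusted p = 0.00497). Nkx6-1, a homeobox factor of mature beta cells, went the other way, at 40.6, 43.5 and 50.5 CPM with IAPP and 24.8 to 31.6 CPM in the other 9 libraries, with -0.82 ± 0.18 (adjusted p = 0.0139 with the block). Pdx1 had an interaction of 0.33 ± 0.23 and was not called. The list's median was 0.22.

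Of 25 tested genes of glucose sensing and secretion, 2 were called positive and 2 negative with the block (16%, against 1.63%), and the median was 0.05. Slc2a2, which encodes the glucose transporter GLUT2, was at 463, 555 and 544 CPM in control, 509, 706 and 555 CPM with urolithin B, 252, 327 and 335 CPM with IAPP, and 496, 628 and 614 CPM with both. The IAPP libraries lay below all others, and the interaction with the block was 0.76 ± 0.14 (adjusted p = 0.00376, and 0.611 without it). Rab3b, a small GTPase of regulated exocytosis, was at 48.0, 38.3 and 30.9 CPM with IAPP and 65.5 to 94.8 CPM elsewhere, with 1.13 ± 0.16 (adjusted p = 0.000119). Chgb, the granule protein chromogranin B, was negative in another way. It was at 1218 to 1547 CPM in control, 1838 to 2018 CPM with urolithin B, 1617 to 2221 CPM with IAPP and 1455 to 2040 CPM with both, so the groups with a treatment overlapped and lay, but for the lowest combined library, above control. Its interaction was -0.60 ± 0.16 (adjusted p = 0.0492), and that of Cacna1c, a subunit of the L-type calcium channel, was -0.64 ± 0.17 (adjusted p = 0.0463). Among 18 potassium and calcium channels Kcnk16, a background potassium channel, was called positive with 0.78 ± 0.18. Gad1, which makes GABA, was called positive with 1.03 ± 0.20, at 13.7 to 14.9 CPM with IAPP, 21.2 to 29.2 CPM with both and 26.2 to 36.8 CPM in the other 6 libraries.

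The hormones did not follow. Ins1 had an interaction of -0.23 ± 0.47 and Ins2 of 0.22 ± 0.40, and with the block they were -0.21 ± 0.20 and 0.26 ± 0.19 (adjusted p = 0.710 and 0.608). The combined libraries held 11045 to 19320 CPM of Ins1, where 18484 CPM would follow from the separate changes and 15947 CPM was the measured mean on the log scale. Gcg, which encodes glucagon, varied more between replicates than between groups, with 18.5 to 40.4 CPM in the 4 replicate 1 libraries and 77.4 to 211 CPM in the other 8. Its interaction with the block was -0.32 ± 0.18 (adjusted p = 0.450). A p above the threshold does not show that these genes were unaffected.

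The positive genes named by size were of mixed function. Cdh4, an R-cadherin of cell adhesion, was at 83.1, 73.0 and 64.8 CPM in control, 72.9, 73.7 and 76.1 CPM with urolithin B, 33.2, 35.2 and 30.9 CPM with IAPP, and 107, 75.8 and 63.4 CPM with both. Its interaction with the block was 1.28 ± 0.18 (adjusted p = 0.000133). Rprml, a relative of the cell-cycle protein reprimo, was at 60.8, 38.5 and 33.9 CPM with IAPP and 132, 93.8 and 79.2 CPM with both, with 1.43 ± 0.16 (adjusted p = 2.87e-06). Nrtn, which encodes the growth factor neurturin, was at 17.8, 32.2 and 28.2 CPM with IAPP and 48.1, 57.7 and 63.4 CPM with both, with 1.39 ± 0.17 (adjusted p = 2.49e-05). Both had IAPP libraries below all libraries of the other groups. Gabrq, a subunit of the GABA-A receptor, did not separate as cleanly. It was at 4.82, 10.1 and 5.92 CPM with IAPP and 9.25 to 16.4 CPM elsewhere, and its replicates gave 2.39, 0.35 and 1.48.

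The other named positive genes were low. Pabpn1l, a poly(A)-binding protein, was at 6.74, 4.06 and 6.14 CPM with IAPP and 19.5, 20.1 and 19.8 CPM with both. Gpr6, an orphan receptor, was at 5.94, 5.64 and 6.37 CPM with IAPP and 19.2, 15.5 and 10.6 CPM with both. Dtx1, a ubiquitin ligase of the Notch pathway, was at 10.1, 3.83 and 3.19 CPM with IAPP and 21.1, 15.7 and 11.8 CPM with both, and Slco4a1, an organic anion transporter, at 4.01, 5.64 and 8.19 CPM and 9.69, 18.3 and 15.6 CPM. In each of these 4 genes all combined libraries lay above all IAPP libraries. The genes were chosen by the size and sign of their interaction in these same libraries, so this separation is a description. The same holds for Rprml and Nrtn above. S100a4, a calcium-binding protein, and Cyp4f1, a cytochrome P450 of fatty acid hydroxylation, were under 1 CPM with IAPP and at 1.68 to 3.81 CPM with both, below the 4.84 to 7.55 CPM of control. Their interactions of 2.26 ± 0.59 and 2.32 ± 0.56 with the block rest on few counts.

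**Figure D3:**
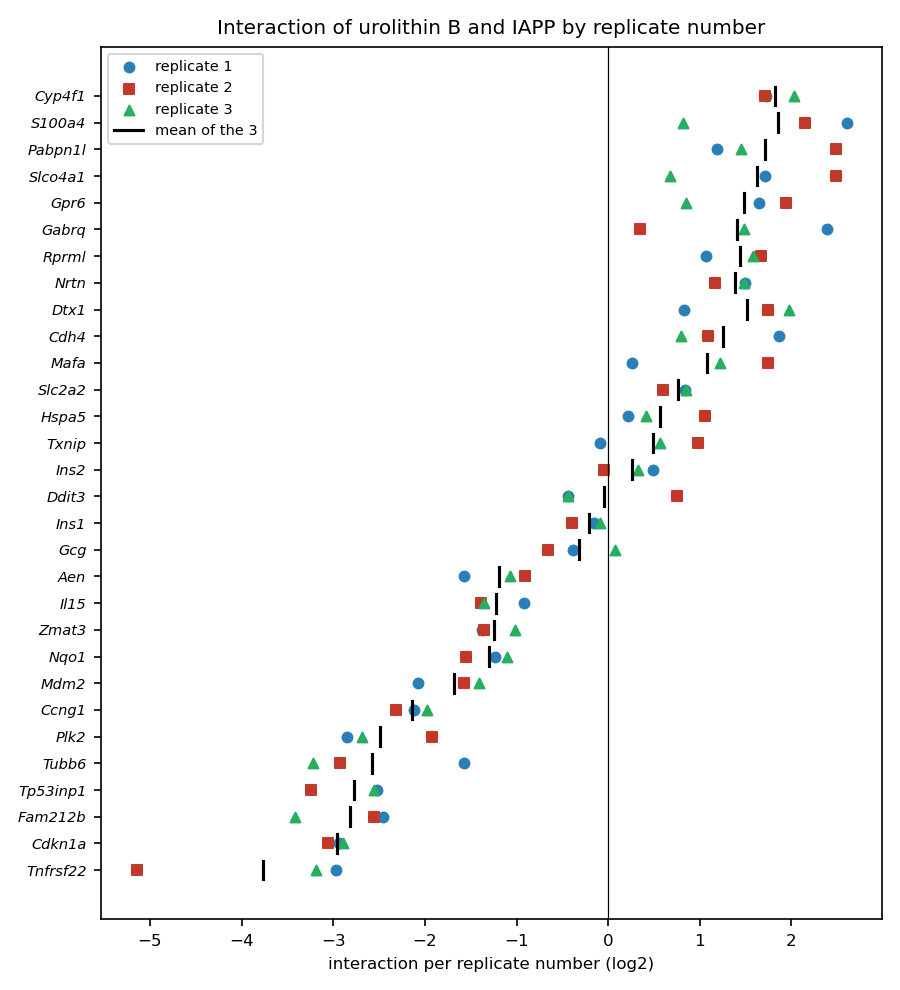
Interaction (horizontal axis, log2) of named genes in each replicate number, with the mean of the 3 as a bar. The replicates of Cdkn1a and Ccng1 lie close together, and those of Mafa, Gabrq and S100a4 spread widely on the positive side.

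**Figure D4:**
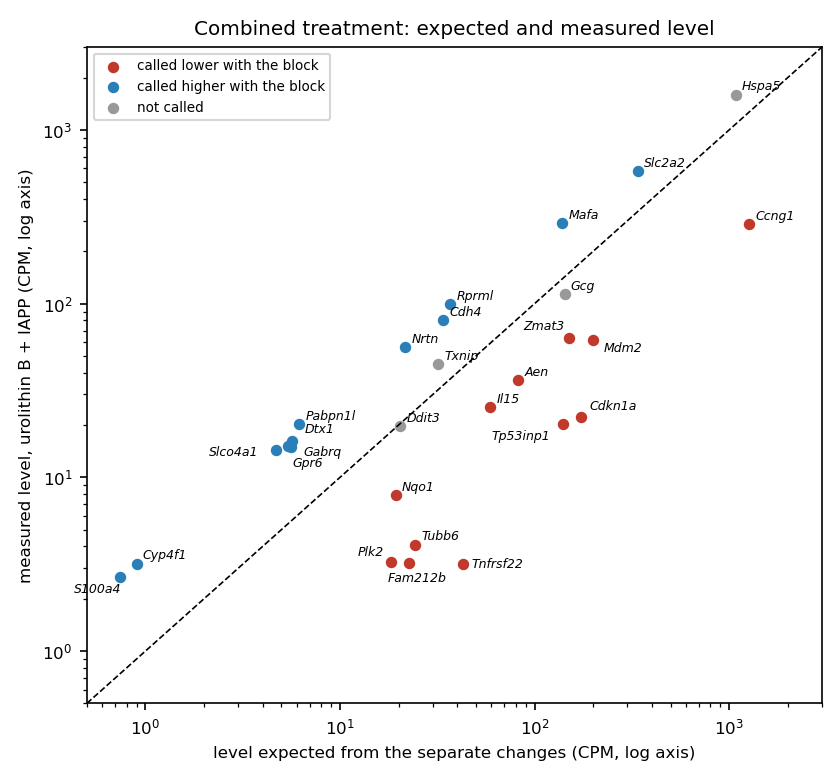
Measured level of the combined treatment (vertical axis, CPM, log scale) against the level that the separate changes would give (horizontal axis, CPM, log scale), 1 point per named gene. The dashed line marks equality, with genes of negative interaction below it and of positive interaction above it.

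Several large pathways had positive medians with few called members. Of 22 tested genes of cholesterol synthesis and uptake, 21 were positive, 17 were positive in all 3 replicates (17.7% of all tested genes were), and 3 were called with the block (13.6%, against 1.63%). The called genes were Idi1 and Hmgcs1, enzymes of the mevalonate pathway, and Insig1, which retains the sterol sensor in the endoplasmic reticulum. Idi1 was at 133, 164 and 181 CPM in control, 122, 153 and 156 CPM with urolithin B, 77.7, 111 and 115 CPM with IAPP, and 118, 182 and 189 CPM with both. Within each replicate number the IAPP library was the lowest of the 4. Its interaction with the block was 0.83 ± 0.14 (adjusted p = 0.00113), and the median of the list was 0.51, with 0.44, 0.67 and 0.47 in the replicates.

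Of 20 tested genes on the list of endoplasmic reticulum chaperones and the unfolded protein response, all 20 had a positive value. In all 3 replicates 14 were positive (17.7% of all tested genes were), and 3 were called with the block (15%, against 1.63%). The median was 0.32. The called genes Sdf2l1, Creld2 and Manf are induced by unfolded proteins. Manf was at 39.7, 82.8 and 87.3 CPM in control, 33.8, 70.8 and 77.3 CPM with urolithin B, 33.9, 64.5 and 78.3 CPM with IAPP, and 53.9, 98.6 and 102 CPM with both. Here the combined library was the highest of the 4 in each replicate number, and the interaction with the block was 0.76 ± 0.15 (adjusted p = 0.00484). Hspa5, which encodes the chaperone BiP, had 0.56 ± 0.17 with the block and was not called (adjusted p = 0.0974). Eif2ak3, which encodes the kinase PERK, is not on this list and was called negative with the block. Ddit3, the stress factor CHOP, had 0.04 ± 0.41 without the block and 0.002 ± 0.25 with it. Its replicates of -0.44, 0.75 and -0.44 did not share a direction. None of 20 tested ATF4 targets was called, with a median of 0.37. Txnip, a thioredoxin inhibitor that responds to glucose, had 0.34 ± 0.57 without the block and 0.43 ± 0.21 with it. It was called in neither fit.

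Of 78 tested cytosolic ribosomal protein genes, 76 had a positive value, as had 8330 of all 16814 tested genes. In all 3 replicates 57 were positive (17.7% of all tested genes were) and 1 was negative. The median was 0.35. With the block Rpl32 and Rpl27 were called positive and Rps27l negative, or 3.85% against 1.63% of all genes. Rps27l, in human a p53 target related to Rps27, was at 110, 121 and 121 CPM with IAPP and 54.0 to 71.6 CPM in the other 9 libraries. Reads of ribosomal protein genes may be shared with near-identical pseudogenes, so their levels are uncertain. The lists of ribosome biogenesis (22 tested, median 0.34), glycolysis and hypoxia (24, median 0.35), nuclear respiratory chain (86, median 0.22), cytosolic heat shock (12, median 0.22), S phase (24, median -0.02) and G2 and mitosis (22, median -0.13) had no called member in edgeR with the block. They do not hold every gene of these processes. Called genes outside the lists include the spindle genes Ckap2 and Aspm, and also Tsr3, Npm3 and Nop16, all given under the other observations. Transcripts of the mitochondrial genome had a fitted median of 0.24 over 13 genes, but the replicate medians of -0.17, 0.78 and -0.18 were of both signs. These medians kept their sign under the other scalings.

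**Figure D5:**
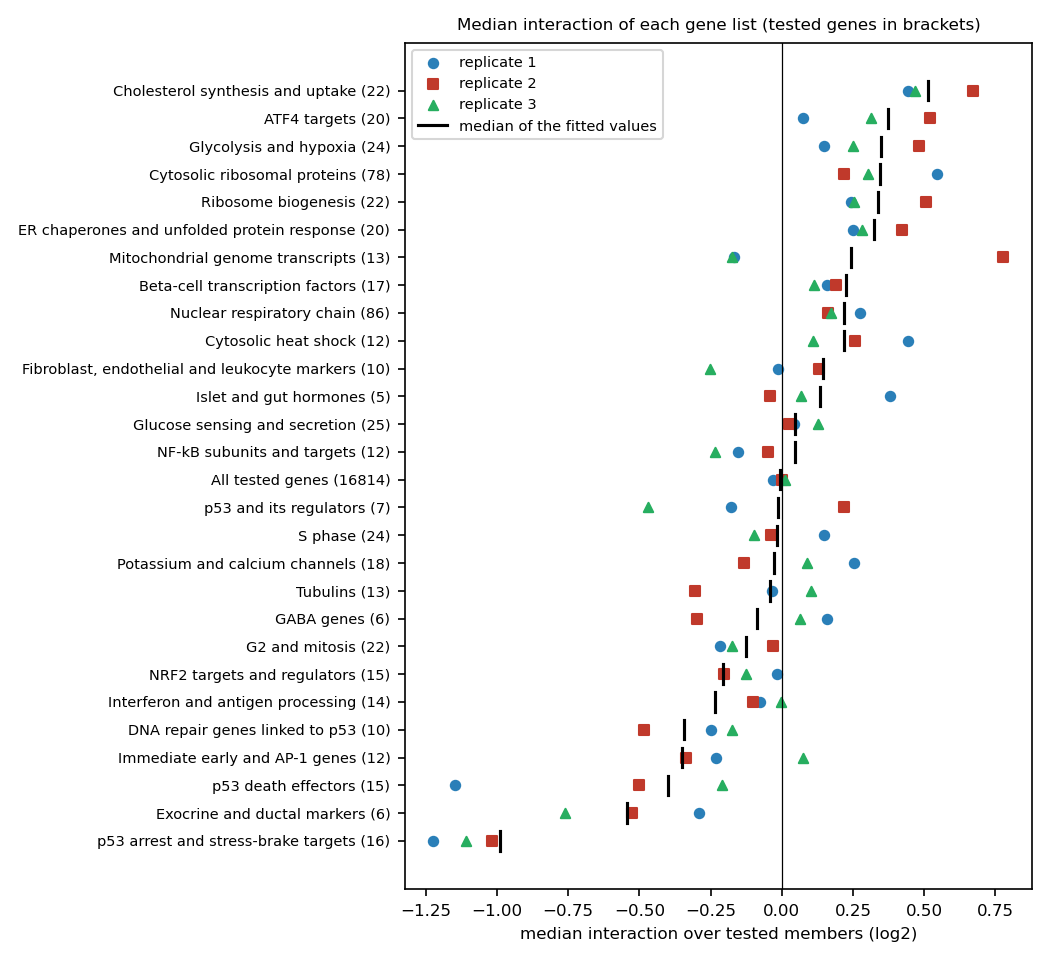
Median interaction (horizontal axis, log2) over the tested members of each gene list with at least 5 of them, for the fitted values (bar) and for each replicate number (points). The p53 arrest targets lie at about -1 in all 3 replicates and cholesterol synthesis at 0.44 to 0.67, while the mitochondrial transcripts differ in sign between replicates.

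The IAPP group was the one that differed in most called genes. For each gene the group mean farthest from the mean of the other 3 groups was taken. This was the IAPP group in 257 of the 274 genes called with the block (93.8%) and in 41.0% of all tested genes, and it was so in all 5 genes called without the block. Control was the odd group in 7 called genes (2.55%, against 20.6% of all), the combined group in 10 (3.65%, against 20.6%) and urolithin B alone in 0 (against 17.8%). Among the genes with control as the odd group, Mif, a cytokine, was at 260, 297 and 250 CPM in control and 125 to 219 CPM in the 9 treated libraries. Hivep1, a zinc finger transcription factor, was at 27.6 to 33.0 CPM in control, 37.1 to 39.5 CPM with urolithin B, 39.5 to 42.8 CPM with IAPP, and 31.0 to 33.8 CPM with both. In both genes the means of the 3 treated groups lay on the same side of control. Slc16a14, Ikzf2 and Dnai1 were the others named, with interactions of 0.74 ± 0.16, -0.80 ± 0.18 and -0.73 ± 0.18 with the block. Besides Manf, the combined group was odd in Tmem252 and the olfactory receptor Olr848, among others. Tmem252 was at 21.8, 18.0 and 18.8 CPM with both treatments, where 37 CPM would follow from the separate changes.

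The calls were also read in libraries that had not been used to choose them. Genes were called with the block in 2 replicate numbers, and the sign of their interaction was read in the replicate left out. With replicate 1 left out, 116 genes were called and 109 of them (94.0%) had the same sign in it, against 58.5% of all tested genes. For replicate 2 it was 137 of 142 (96.5%, against 58.7%), and for replicate 3 it was 68 of 70 (97.1%, against 60.8%). The size was smaller in the replicate left out. For negative genes the median went from -1.25 where chosen to -0.76 in replicate 1, from -1.12 to -1.065 in replicate 2 and from -1.35 to -1.20 in replicate 3. For positive genes it went from 1.09 to 0.52, from 0.91 to 0.71 and from 1.23 to 0.81. All 274 genes called over the full set had the same sign in their 3 replicate values, against 36.3% of all tested genes, and since those values made the calls this is a description. Their number depends on the fit: with 1 value per replicate number and limma, none of the genes passed, Cdkn1a included, and 1719 had an unadjusted p under 0.05.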

How the data were processed

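The authors deposited 1 table of raw read counts per gene, whole numbers with 1 column per library, which the series text says was corrected after release. Per the labels' protocols, RNA from INS-1 832/3 cells went into QuantSeq 3prime FWD libraries, which read transcript ends; the tools were FastQC, Bowtie2 and SAMtools, per the submitters' processing notes. The counter, and with it the strand setting, build and annotation, is not given in the sources used here, so overlapping genes and near-identical copies are uncertain. Groups came from the titles. Library totals ran from 4828003 to 6681455 counts, so genes of a few CPM carry counting error.

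Counts were tested with edgeR 4.0.16 in R 4.3.3 (quasi-likelihood F-test in 1 fit of 12 libraries, filterByExpr by group, scaling by TMM, Benjamini-Hochberg adjustment at 0.05), without and with the replicate number as a block. CPM are scaled to TMM library sizes, and per-replicate values are log2 CPM with a prior count of 2. The expected combined level is control times both separate ratios, from mean log2 CPM. Pairing by replicate number was checked: in 18 of 18 pairs that share a number, deviations from group means correlated with r from 0.44 to 0.89. The biological coefficient of variation was 0.332 without and 0.104 with the block. With replicate 1 left out, such pairs had r from -0.06 to 0.02, with the same r values in both remaining replicate numbers, so the pairing rests on replicate 1. Replicates all differed by more than sampling noise (chi-square per degree of freedom of 3.71 or more).

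Alternatives were DESeq2 1.42.0, limma 3.58.1, other scalings and filters, and left-out libraries. Of the gene names, 22967 were found in RefSeq. The comparison, the 29 lists and the rules were chosen with earlier results of these data known, so they are no independent support. Of genes called with at least 5 CPM in the highest group and the same sign in all replicates, the 15 largest in each direction were named, filled to 10 with genes called with the block, plus 12 set genes, 5 per other odd group and up to 4 per list; list members called with the block are named as such. Some genes that these rules would name are not reported here.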

Additional observations from a re-analysis of the deposited data

Results flagged for a closer look

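For 5 genes the IAPP change with urolithin B differed from that without it by a test of the difference itself, the interaction term of edgeR without the block. The interaction was -2.98 for Cdkn1a, -1.72 for Mdm2, -1.25 for Zmat3, -1.22 for Il15 and -1.20 for Aen (log2), lower in 3 of 3 replicates for each. With 1 library left out, Cdkn1a passed in 12 of 12 fits, Mdm2 in 2 and the other 3 genes in 0, while with the block all 5 passed in each of 21 edgeR and DESeq2 fits and in 0 with limma on the per-replicate values.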

How the results depend on the processing

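The number of calls depended on the replicate block and the tool. Against 5 calls, all negative, from edgeR without the block, edgeR with the replicate block called 274 (103 positive, 171 negative), DESeq2 113 (36 and 77) without and 287 (127 and 160) with the block, limma-voom 8 (all negative), limma on the 3 per-replicate values 0 in either direction, no filter on low counts 3 (all negative), and a mean of at least 5 CPM 13 (3 and 10). Scaling to library size alone gave 5 calls (1 positive, 4 negative: LOC690918 positive; Ccng1, Ckap2, Fat1 and Cdkn1a negative), and with the block 171 (50 and 121). Leaving out a library or a replicate number gave 0 to 107 calls without the block, where the reference was 5 (0 to 31 positive, 0 to 76 negative). With the block it gave 70 to 395 calls, where the reference was 274 (22 to 181 positive, 48 to 214 negative). With the block, moves beyond 1.5 times came without control replicate 2 (143; 49 positive, 94 negative), control replicate 3 (176; 102 negative), IAPP replicate 2 (163; 59 and 104), IAPP replicate 3 (167; 66 and 101), combined replicate 2 (167; 64 and 103), combined replicate 3 (142; 53 and 89), replicate 1 (116; 38 and 78), replicate 2 (142; 58 and 84) and replicate 3 (70; 22 and 48), and without urolithin B replicate 2 for the positive calls (181). Without replicate 1 the unblocked fit called 107 (31 and 76), and without replicate 2 or 3 it called 0; the cause was not tested. The blocked DESeq2 calls shared 226 of the 274 genes. Over 6095 values of 140 named genes under alternatives, 67 lost the call, 845 gained it and 0 called values reversed. The call stayed as it was in 5183, among them 67 values called in neither fit whose sign differed. The alternatives that join the block with a single left-out library, median-ratio size factors, the filter on mean CPM or the removal of mitochondrial rRNA were chosen after seeing the data.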

Other observations

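Further genes called with the block fell outside the lists, and those below were chosen after their values were seen. They stand for no group. Negative interactions were found for Fat1, an atypical cadherin, Alcam and Ncam2, adhesion molecules of the immunoglobulin family, Jam3, a junctional adhesion molecule, and the receptor Notch1. Fat1 had means of 75.4 ± 15.6 CPM in control, 86.6 ± 22.6 CPM with urolithin B, 215 ± 43.5 CPM with IAPP and 89.0 ± 20.7 CPM with both (SD, n = 3), and an interaction with the block of -1.47 ± 0.14. That of Alcam was -1.42 ± 0.18, of Ncam2 -1.43 ± 0.16, of Jam3 -1.38 ± 0.28 and of Notch1 -1.39 ± 0.28. Ckap2, a spindle protein, was at 210 ± 46.9 CPM with IAPP and 74.3 ± 12.5 CPM with both, with -1.54 ± 0.16, and Aspm, another spindle protein, had -0.73 ± 0.15. The eIF2-alpha kinases PKR and PERK, encoded by Eif2ak2 and Eif2ak3, had -0.86 ± 0.16 and -0.80 ± 0.17.

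In the positive direction, Fabp5, a fatty acid binding protein, had means of 182 ± 7.57 CPM in control, 160 ± 4.59 CPM with urolithin B, 102 ± 4.09 CPM with IAPP and 155 ± 9.18 CPM with both, with an interaction of 0.79 ± 0.14. Dcx, the microtubule protein doublecortin, was at 55.5 ± 6.72 CPM with IAPP and 100.1 ± 13.1 CPM with both, with 0.87 ± 0.14. The kinases Pim2 and Pim3 had 1.13 ± 0.26 and 0.80 ± 0.21, and Tsr3, Npm3 and Nop16 1.08 ± 0.16, 0.69 ± 0.17 and 0.62 ± 0.15. Of the 274 genes, 39 carry placeholder names and are not described.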
